A study of Mus musculus with 4 samples.

Results

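The genes described here are 9 surface proteins by which haematopoietic stem cells (HSC) and multipotent progenitors of mouse bone marrow are sorted: Procr, Slamf1, Kit, Ly6a, Cd34, Cd48, Flt3, Esam and Tek. They were taken by name, and all 9 were found among the 24411 gene rows of each of the 4 tables. Single HSC sorted from bone marrow of Mat KO mice (2 libraries, replicates 1 and 2, written KO1 and KO2) and of wild-type mice (2 libraries, written WT1 and WT2) had been profiled by a modified form of STRT-seq, which counts cDNA tagged with a unique molecular identifier (UMI) near the 3′ end of polyadenylated RNA. Mat KO is the genotype as the labels give it, and the series' title concerns small nucleolar RNAs of the imprinted Dlk1-Gtl2 locus and how long-term HSC self-renew. Age, sex, strain, the number of animals behind a library and the antibody gate of the sort are not given in the sources used here. It is therefore not known which of the 9 proteins had been used to choose the cells. The labels name no separate animals, so p-values measure only the spread between libraries, which may be technical.

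Sorting of mouse stem cells rests on combinations of surface proteins. Kit, the receptor of stem cell factor, and Ly6a, the Sca-1 antigen, are carried together by the lineage-negative compartment that holds stem cells and multipotent progenitors. Within it, long-term stem cells are sorted by the presence of Slamf1 (CD150), a SLAM-family adhesion receptor, and Procr (EPCR), the endothelial protein C receptor, and by little or no Cd34, Cd48 or Flt3. Cd34 is a sialomucin, Cd48 is a SLAM-family ligand, and Flt3 is a receptor tyrosine kinase of lymphoid-primed progenitors. Esam, an endothelial cell adhesion molecule, and Tek (Tie2), the receptor of angiopoietins, are shared by stem cells and endothelium. These rules concern protein at the cell surface, whereas the values below are transcript counts.

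In all, 188 cells had at least 1000 detected genes and were kept, 44 from KO1 and 48 from each other library. The kept cells of a library held 1768647 to 3253608 UMIs, and the median per cell was 33612.5 in KO1, 27845 in KO2, 53092.5 in WT1 and 51437 in WT2. Because the WT cells were deeper, shares of cells were compared after thinning each cell to 8800 UMIs, which kept 170 cells and left out 18. Most cells stayed under limits, chosen on these data, for the share of UMIs taken by mature lineage markers. Such transcripts were not absent, with S100a8 in 187, Lyz2 in 170 and S100a9 in 163 of 188 cells. By lists of marker genes, 148 of 188 cells were lineage-low, 18 carried granulocyte and monocyte transcripts, 18 B-lymphoid transcripts, 2 T or NK transcripts and 2 erythroid transcripts. KO1 stood apart, with 18 such lineage-marker cells of 44, of which 10 were of the granulocyte and monocyte kind, against 7 or 8 of 48 in each other library. The summed granulocyte and monocyte list took 37691 CPM there (UMIs of the summed cells, scaled to the library's total in the usual way), against 3727 to 7431 CPM in the other 3 libraries. With the class limits halved, lineage-low cells fell from 26 to 16 in KO1. They fell from 41 to 38 in KO2, from 41 to 36 in WT1 and from 40 to 35 in WT2. Of 10 endothelial markers, Cdh5, Stab2 and Fabp4 were at 0 UMIs in all kept cells, Plvap, Cldn5, Flt4 and Kdr had 4 to 48 UMIs in 3 to 5 cells each, and Tie1, Pecam1 and Emcn, which stem cells also express, had 504, 346 and 254 UMIs in 79, 59 and 40 cells. Of 7 stromal markers, Lepr, Col1a1, Col3a1 and Pdgfra were at 0 and Cxcl12, Kitl and Adipoq had 4, 7 and 13 UMIs. The libraries used the same 48 well positions, of which 44 gave a kept cell in all 4, and members were found together in wells of the same position 0.39 to 1.22 times as often as chance pairing of wells would give.

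The promoters shown are those of 4 of the 5 genes that differed between lineage-low and lineage-marker cells, 3 of them higher and 1 (Cd48) lower, as described further on. RefSeq's table held an entry for 7 of the 9 genes, the others being Ly6a and Esam. Each run is the 250 bases before the RefSeq start on GRCm38.p6, 5′ to 3′ along the gene's strand. Motifs were sought on both strands. Capitals mark a match to AGGAAG, a core recognised by ETS factors. Capitals in the Cd48 promoter mark TGTGGT, a core recognised by RUNX factors. A core recognised by GATA factors, GATAA, was sought as well and is in none of the windows printed.

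Procr promoter, chr2:155750967-155751216, strand +: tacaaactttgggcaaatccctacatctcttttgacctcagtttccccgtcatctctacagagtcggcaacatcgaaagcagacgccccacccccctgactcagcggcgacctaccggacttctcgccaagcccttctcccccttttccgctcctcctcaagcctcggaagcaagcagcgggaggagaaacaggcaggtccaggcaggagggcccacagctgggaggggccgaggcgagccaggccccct

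Kit promoter, chr5:75574737-75574986, strand +: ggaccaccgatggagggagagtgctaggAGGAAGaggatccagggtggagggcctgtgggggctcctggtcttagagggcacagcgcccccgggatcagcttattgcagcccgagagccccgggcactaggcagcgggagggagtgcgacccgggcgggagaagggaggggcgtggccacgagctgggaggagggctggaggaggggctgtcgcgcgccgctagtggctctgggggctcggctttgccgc

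Cd34 promoter, chr1:194938571-194938820, strand +: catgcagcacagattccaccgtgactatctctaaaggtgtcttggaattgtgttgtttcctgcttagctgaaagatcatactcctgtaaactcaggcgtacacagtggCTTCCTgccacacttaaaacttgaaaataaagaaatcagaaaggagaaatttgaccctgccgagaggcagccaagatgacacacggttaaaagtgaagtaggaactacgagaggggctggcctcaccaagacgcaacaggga

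Cd48 promoter, chr1:171681742-171681991, strand +: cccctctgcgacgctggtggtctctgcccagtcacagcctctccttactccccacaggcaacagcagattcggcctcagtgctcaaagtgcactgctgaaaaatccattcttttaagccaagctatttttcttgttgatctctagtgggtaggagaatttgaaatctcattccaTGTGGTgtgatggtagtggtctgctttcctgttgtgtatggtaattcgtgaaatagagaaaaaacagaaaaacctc

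The Kit window held AGGAAG on the gene's strand, the Cd34 window held it on the other strand as CTTCCT, and the Cd48 window held TGTGGT. The Procr window held no match to any of the 3 motifs. Among all 27025 mouse promoters of this length, AGGAAG or its reverse complement was found in 29.2%, TGTGGT in 14.2% and GATAA in 23.0%. In the remaining entries, the Slamf1 window had 1 match each to GATAA and AGGAAG, and those of Flt3 and Tek had no match.

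In the GENCODE annotation of GRCm38, 2 of the members are neighbours in the SLAM cluster of chromosome 1, where the end of Cd48 (171682009 to 171705258) lies 61869 bases before the start of Slamf1 (171767127 to 171801184), both on the plus strand. Cd34 lies on the same chromosome at 194938819 to 194961279, and its last exon overlaps an antisense gene, Gm16897, so that Cd34 counts may hold reads of both if strand was not used in counting. Kit lies on chromosome 5 at 75574916 to 75656722, and Flt3 lies on the same chromosome at 147330741 to 147400489. Procr is on chromosome 2 (155751117 to 155755471), Tek on chromosome 4 (94739289 to 94874976), Esam on chromosome 9 (37528078 to 37538319) and Ly6a on chromosome 15 (74994877 to 74998031). An antisense gene, Gm26597, overlaps Flt3 outside its last exon. No last exon of the 8 genes other than Cd34 overlaps another annotated gene.

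Kit was the most abundant of the 9 transcripts in every library. Its summed level was 266 CPM in KO1, 340 in KO2, 374 in WT1 and 381 in WT2. Its percentile among the detected genes of a library was 95.7 to 97.4. Kit was found in 168 of 188 cells.

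Cd34, Ly6a and Procr followed, with means over the 4 libraries of 89.3 ± 42.4, 86.6 ± 17.7 and 71.0 ± 20.8 CPM (SD, n = 4). Cd34 measured 47.4 CPM in KO1, 86.5 in KO2, 148.0 in WT1 and 75.3 in WT2. Ly6a measured 70.5 CPM in KO1, 73.5 in KO2, 108 in WT1 and 94.7 in WT2. Procr measured 71.0 CPM in KO1, 51.5 in KO2, 99.9 in WT1 and 61.8 in WT2. The library ranges of these 3 genes overlapped, so their order is not fixed by these data. Cd34 was found in 105 cells, Ly6a in 102 and Procr in 85 of 188.

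Flt3 and Esam came next, at 46.7 ± 24.6 and 33.2 ± 17.8 CPM (SD, n = 4). Flt3 measured 32.1 CPM in KO1, 81.4 in KO2, 46.5 in WT1 and 26.7 in WT2. Esam measured 13.2 CPM in KO1, 44.7 in KO2, 51.2 in WT1 and 23.7 in WT2. In both genes the ranges of the 2 genotypes overlapped. Flt3 was found in 60 cells and Esam in 68 of 188. The Flt3 level rested on few cells in WT, where 1 cell gave 44.6% and 51.7% of the UMIs in WT1 and WT2.

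Cd48, Tek and Slamf1 were the scarcest. Cd48 measured 42.1 CPM in KO1, 20.4 in KO2, 19.8 in WT1 and 19.1 in WT2. Tek measured 16.3 CPM in KO1, 43.0 in KO2, 15.7 in WT1 and 15.1 in WT2. Slamf1 measured 11.1 CPM in KO1, 7.92 in KO2, 10.4 in WT1 and 9.22 in WT2, the lowest of the 9 in every library. In the order by mean level, neighbouring ranges did not overlap only between Kit and Cd34 and between Tek and Slamf1. Cd48 was found in 42 cells, Tek in 38 and Slamf1 in 26 of 188. The total for Slamf1 was 98 UMIs, of which a single cell gave 12 of the 14 in KO2, so its level has little precision. UMIs over-counted molecules here, since spike-in species present in few wells gave 5.18 to 7.37 UMIs per positive well, and intervals cover counting error only.

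**Figure D1:**
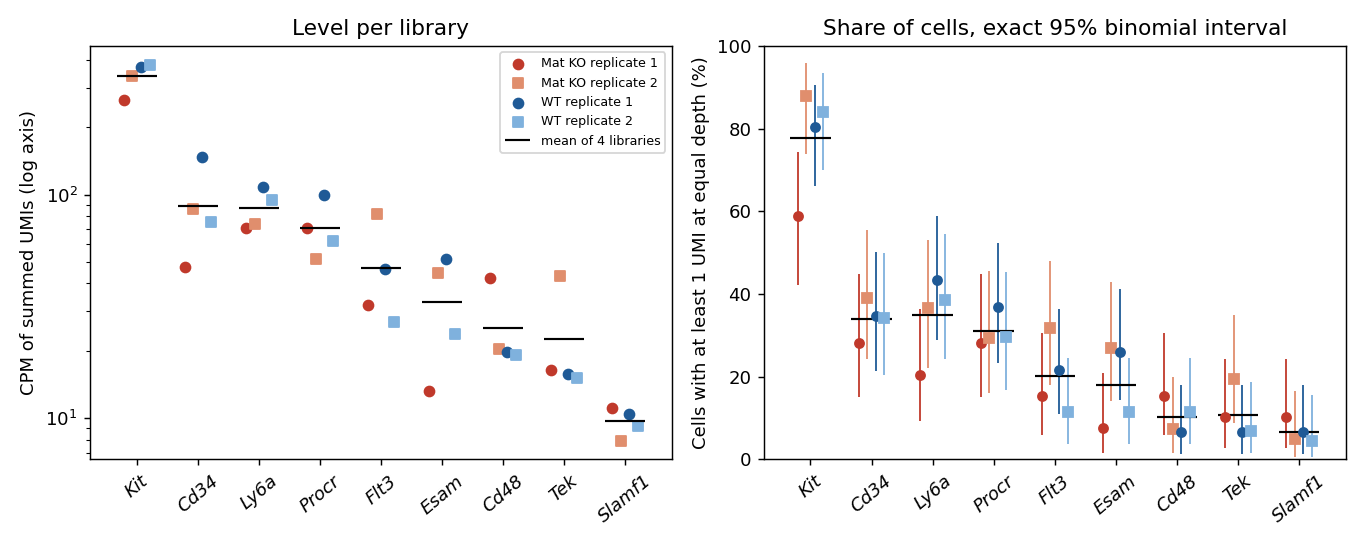
Left, level of each gene in each library as CPM of UMIs summed over kept cells (log axis); right, percent of cells with at least 1 UMI after thinning each cell to 8800 UMIs, with exact 95% binomial intervals. Points are libraries and black lines are means of the 4 libraries; Kit lies above all other genes in each library on the left, and Slamf1 below them.

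At equal depth the order by detection was much the same. Kit was detected in 59.0% of cells in KO1, 87.8% in KO2, 80.4% in WT1 and 84.1% in WT2. Cd34, Ly6a and Procr were detected in 34.0% ± 4.5, 34.8% ± 9.96 and 31.0% ± 4.0 of cells (SD, n = 4). Flt3 reached 20.1% ± 8.9, Esam 18.0% ± 9.9, Tek 10.8% ± 6.1, Cd48 10.2% ± 4.1 and Slamf1 6.55% ± 2.62 (SD, n = 4). Before thinning, the shares ranged from 13.8% of all kept cells for Slamf1 to 89.4% for Kit.

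The usual pair of stem and progenitor genes was often seen together without thinning: 96 of 188 cells held both Kit and Ly6a, 72 held Kit without Ly6a, 6 held Ly6a without Kit and 14 held neither. Only 6 of 188 cells held no member at all, of which 2 were lineage-low. The median number of members per cell was 3 in KO1, 3.5 in KO2 and 4 in both WT libraries. In wells not kept as cells, the 4 libraries together held 1 UMI each of Procr, Kit and Cd34 and none of the other 6 genes.

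The comparison of Mat KO with WT asks whether the sorted cells carry the same marker transcripts in both genotypes. No member passed the test of summed counts (edgeR quasi-likelihood test, Benjamini-Hochberg adjustment over all genes). Of all genes tested, 0.075% of 10663 passed, and 7.82% had an unadjusted p under 0.05, a level that none of the 9 members reached with all libraries and kept cells. DESeq2 called no member either. Cd34 had the smallest p, with a log2 fold change (Mat KO minus WT) of -0.70 (SE 0.45, adjusted p = 0.757). This value was -1.23 without KO2 and -1.11 without WT2, with edgeR unadjusted p of 0.025 and 0.037 (adjusted 0.408 and 0.818), but -0.15 without WT1 and -0.04 in cells thinned to equal depth. In thinned cells Ly6a had the smallest p instead, with a log2 fold change of -0.92 (edgeR unadjusted p = 0.024, adjusted p = 0.594). Without KO1, Flt3 was at 1.19 (edgeR unadjusted p = 0.044, adjusted p = 0.495). After adjustment no member passed in any of the settings run. Tek had the largest change, 0.98 (SE 0.74, adjusted p = 0.800), and its value without KO2 was 0.09. The other log2 fold changes were 0.71 for Cd48, 0.67 for Flt3, -0.46 for Ly6a, -0.37 for Procr, -0.33 for Esam, -0.28 for Kit and -0.02 for Slamf1. With 2 libraries a group these errors leave room for changes in either direction.

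Leaving out a library moved several of these values. Without KO1, which held the most lineage-marker cells, the log2 fold change of Kit was -0.11, that of Cd34 -0.33, that of Cd48 0.11 and that of Esam 0.29. Without KO2 that of Flt3 was -0.18, and without WT1 that of Procr was 0.01. No member passed with any 1 library left out.

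Summed levels did not overlap between the genotypes for 4 members. Kit and Ly6a were lower in both Mat KO libraries than in both WT libraries, as were 21.7% of 10287 genes, and Cd48 and Tek were higher in both, as were 17.3%. At equal depth, shares of cells did not overlap for 3 members, which stands beside 23.6% of 8665 genes lower and 13.8% higher in both Mat KO libraries. Ly6a was detected in 20.5% of cells in KO1, 36.6% in KO2, 43.5% in WT1 and 38.6% in WT2. Procr was detected in 28.2%, 29.3%, 37.0% and 29.5% in the same order, a gap of less than 1 percentage point between the nearest libraries. Tek was detected in 10.3%, 19.5%, 6.52% and 6.82%. For each of these 3 genes the exact two-sided permutation test over libraries gave p = 0.3333, the smallest p that 2 against 2 can give. These shares come from 1 thinning draw. As shares expected over all draws, Ly6a (25.4%, 38.3%, 44.8% and 36.3%) and Procr (29.3%, 26.5%, 37.6% and 28.7%) overlapped between the genotypes, whereas Tek did not and Flt3 did not either (18.4%, 34.6%, 18.3% and 12.3%). With cells thinned to 18500 UMIs instead, Procr was higher in both Mat KO libraries, at 43.8%, 39.4%, 34.2% and 31.6%.

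In lineage-low cells alone, Kit was even across the libraries, at 462 CPM in KO1, 419 in KO2, 444 in WT1 and 446 in WT2. Its log2 fold change there was 0.04 (edgeR adjusted p = 0.993). Procr measured 137, 71.4, 118 and 77.9 CPM in the same order, with a log2 fold change of 0.13 (edgeR adjusted p = 0.981). KO1, which had the lowest Kit over all kept cells and the most lineage-marker cells, had the highest Kit among lineage-low cells. Ly6a was at -0.06, Cd34 at -0.42, Esam at 0.00, Slamf1 at 0.62, Flt3 at 0.87 and Tek at 1.51 on the log2 scale. None of the 8 tested members passed or had an unadjusted p under 0.05. Over all genes 0.0398% of 10057 passed in these cells. Cd48 was too scarce in lineage-low cells to be tested.

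The other genes of the same pathways and panels were ligands, signalling partners, SLAM and Ly6 relatives and further surface markers, 95 genes in the files, of which 72 were tested between the genotypes. Of these, 41 were higher and 31 lower in Mat KO, with a median log2 fold change of 0.14 against -0.01 over all genes. An unadjusted p under 0.05 was found for 18 of them, against 834 of all 10663 genes tested, and 1 passed. That gene was Ly6c2, a Ly6 relative of Ly6a carried by monocytes and granulocyte precursors, at 540 CPM in KO1, 589 in KO2, 94.9 in WT1 and 105 in WT2. Its log2 fold change was 2.53 (SE 0.26, edgeR adjusted p = 0.003). Ly6c2 is also one of the genes by which granulocyte and monocyte cells were recognised. In lineage-low cells it was at 1.19 (SE 0.97, edgeR adjusted p = 0.852), and 0 of 61 tested genes of these panels passed there. Of these 61, 5 had an unadjusted p under 0.05, as had 775 of all 10057 genes tested. The next smallest p of the higher genes belonged to Cd53 and Ptprc, both pan-leukocyte surface proteins, with log2 fold changes of 1.78 and 1.02 (edgeR adjusted p = 0.180 and 0.230). Among the lower genes they belonged to Socs2, a feedback inhibitor of cytokine signalling, Cd151 and Cd81, with -1.08, -1.81 and -0.54 (edgeR adjusted p = 0.588, 0.614 and 0.680).

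Of the ligands of the members, Angpt1, which binds Tek, was itself abundant in these cells, with 973 UMIs in KO1, 1289 in KO2, 2146 in WT1 and 1722 in WT2. Kitl, the ligand of Kit, had 0 UMIs in KO1, 6 in KO2, 0 in WT1 and 1 in WT2, and Proc, which binds Procr, had none in any library. The log2 fold change of Angpt1 was 0.08 (SE 0.26, edgeR adjusted p = 0.973).

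Within libraries, Procr, Kit, Cd34 and Esam were higher and Cd48 was lower in lineage-low cells than in lineage-marker cells. This comparison was added after the data had been seen. It sums each class per library and keeps the library as a block. The classes were set by shares of marker transcripts that include no member, with limits chosen on these data, and 38 of 188 cells lay within 2 times of a limit. In all, 5 of 9 members passed, 4 higher and 1 lower in lineage-low cells, where 4.41% of 8202 genes were higher and 4.1% lower.

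Procr was the clearest. Its lineage-low cells measured 137 CPM in KO1, 71.4 in KO2, 118 in WT1 and 77.9 in WT2, against 5.27, 1.97, 9.27 and 1.46 CPM in the lineage-marker cells of the same libraries. All 4 lineage-low sums lay above all 4 others, with a log2 fold change of 4.61 (SE 0.70, edgeR adjusted p = 8.7e-05). At equal depth 53 of 134 lineage-low cells (39.6%) held Procr, against 0 of 15 granulocyte and monocyte cells, which allows a share of up to 20%, and 0 of 17 B-lymphoid cells, which allows up to 17.6%. Without thinning, Procr had at least 1 UMI in 75 of 148 lineage-low cells (50.7%), 4 of 18 granulocyte and monocyte cells and 6 of 18 B-lymphoid cells, so these classes were not free of Procr UMIs. In WT1 the unthinned share was 4 of 7 lineage-marker cells (57.1%) against 53.7% of lineage-low cells, at 9.27 against 118 CPM.

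Kit measured 419 to 462 CPM in lineage-low cells and 29.7 to 144 CPM in lineage-marker cells (log2 fold change 2.41, SE 0.37, edgeR adjusted p = 8.9e-05). Kit was not absent from the latter, being detected at equal depth in 46.7% of granulocyte and monocyte cells and 41.2% of B-lymphoid cells, against 88.1% of lineage-low cells. Cd34 measured 85.2 to 177 CPM in lineage-low cells and 2.92 to 31.5 CPM in lineage-marker cells (log2 fold change 3.54, SE 0.65, edgeR adjusted p = 0.000711). Esam measured 24.2 to 62.7 CPM in lineage-low cells and 0 to 2.11 CPM in lineage-marker cells (log2 fold change 5.17, SE 1.18, edgeR adjusted p = 0.005). For each of these 3 genes the ranges of the 2 classes did not overlap.

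Cd48 went the other way. It measured 1.05, 4.76, 2.65 and 17.9 CPM in lineage-low cells of KO1, KO2, WT1 and WT2, and 83.2, 59.0, 104 and 23.3 CPM in the lineage-marker cells of the same libraries. WT2 showed the smallest gap. The log2 fold change was -3.77 (SE 0.99, edgeR adjusted p = 0.016). Without thinning, at median depths of 40560.5 UMIs in lineage-low, 62689 in B-lymphoid and 27046.5 in granulocyte and monocyte cells, 21 of 148 lineage-low cells held Cd48, against 12 of 18 B-lymphoid cells and 6 of 18 granulocyte and monocyte cells. The higher Cd48 of KO1 over all kept cells, 42.1 CPM, thus came with 1.05 CPM in its lineage-low cells.

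The remaining 4 genes did not pass. The log2 fold change was 2.11 for Flt3 (SE 0.81, edgeR adjusted p = 0.111), 2.95 for Tek (adjusted p = 0.180), 2.42 for Slamf1 (adjusted p = 0.378) and 0.69 for Ly6a (adjusted p = 0.539). Ly6a measured 71.7 to 121 CPM in lineage-low cells and 23.6 to 181 CPM in lineage-marker cells, where the highest sum was that of WT2. At equal depth Ly6a was detected in 37.3% of lineage-low cells, 29.4% of B-lymphoid cells and 20% of granulocyte and monocyte cells. Halving the class limits lowered the log2 fold changes of Procr to 2.39 and of Kit to 1.23 and ended the calls of Cd34 (edgeR adjusted p = 0.052), Cd48 (0.070) and Esam (0.111). The Cd48 call was also lost without KO1 (0.164), KO2 (0.056) or WT1 (0.144), and without its leading cell in each library (0.076). DESeq2 also called Flt3 and Tek (adjusted p = 0.031 for both).

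**Figure D2:**
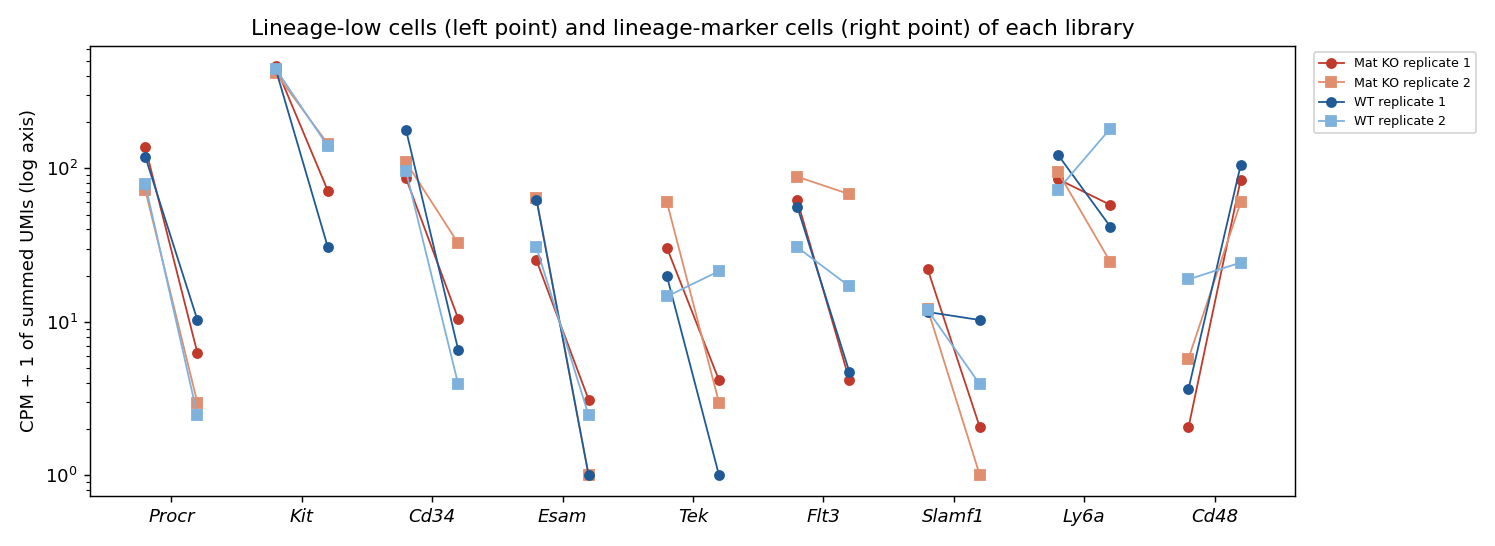
Level of each gene in the lineage-low cells (left point) and the lineage-marker cells (right point) of each library, as CPM + 1 of summed UMIs on a log axis, with lines joining the classes of a library. Procr, Kit, Cd34 and Esam fall from left to right in all 4 libraries and Cd48 rises in all 4, whereas Ly6a rises in WT2 and falls in the other 3.

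Of the related panels, 57 genes were tested between the classes, and 3 of these had served to define the classes. Among the other 54, 11 passed as higher and 7 as lower in lineage-low cells, as did 4.41% and 4.1% of all 8202 genes. The higher genes included Angpt1 (log2 fold change 3.78), the tetraspanin Cd63 (2.26) and the Tek relative Tie1 (3.38), and the lower genes included the interleukin-7 receptor Il7r (-6.69) and the SLAM relative Slamf7 (-6.77). The rule for named genes did not cover this added comparison, so these were chosen after their values were seen. A list of 26 long-term stem cell genes took a median of 0.448% of the UMIs of a lineage-low cell, against 0.120% in granulocyte and monocyte cells and 0.034% in B-lymphoid cells. A list of 20 multipotent progenitor genes took 0.121%, 0.257% and 0.416% in the same order, and 4 of its 20 genes had served to define the classes. A few genes weighed most in these shares. Over all kept cells the largest were Ifitm1 (12113 UMIs) in the stem cell list and Mki67 (4964 UMIs) in the progenitor list.

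Cells were then described by transcripts of the pair found on long-term stem cells, Procr and Slamf1, and of the pair found on progenitors, Cd48 and Flt3. At equal depth, 41 of 170 cells (24.1%) held Procr or Slamf1 without Cd48 and Flt3, 32 (18.8%) held Cd48 or Flt3 without the other pair, 18 (10.6%) held both kinds and 79 (46.5%) held none of the 4. The number with both kinds was close to the 17.4 cells that independent detection within each library would give, with 2 cells against 4 expected in KO1 and 8 against 5.12 in KO2. At equal depth all 41 cells with Procr or Slamf1 alone and all 18 with both kinds were lineage-low. Of the 32 with Cd48 or Flt3 alone, only 18 were lineage-low, and in KO1 only 4 of 10. Without thinning, 43 of 44 cells with Procr or Slamf1 alone and 44 of 55 with both kinds were lineage-low. Among the 134 lineage-low cells, independent detection would give 15.7 with both kinds. The share with Procr or Slamf1 alone was 28.2% in KO1, 14.6% in KO2, 30.4% in WT1 and 22.7% in WT2. The share with Cd48 or Flt3 alone was 25.6% in KO1, 17.1% in KO2, 19.6% in WT1 and 13.6% in WT2. For each combination the genotypes overlapped at this depth and threshold (exact two-sided permutation test over libraries, p = 0.667 for both of these shares, where 2 against 2 cannot go below 0.3333). Other settings gave other answers. Without thinning, where WT cells were deeper, none of the 4 combinations overlapped, and from 2 UMIs only Procr or Slamf1 alone did. The share with Cd48 or Flt3 alone was then 25.0% in KO1, 29.2% in KO2, 12.5% in WT1 and 14.6% in WT2 without thinning, and 12.8%, 12.2%, 8.70% and 9.09% from 2 UMIs. It was also higher in both Mat KO libraries in lineage-low cells, at 16.7%, 14.3%, 12.8% and 11.1% when thinned and 15.4%, 26.8%, 9.76% and 12.5% when not. In each of these 4 settings the exact permutation p was 0.3333. The settings draw on the same cells, so they are not separate evidence. How often combinations of other genes would fail to overlap in them was not computed, so these non-overlaps are not a result about the members.

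**Figure D3:**
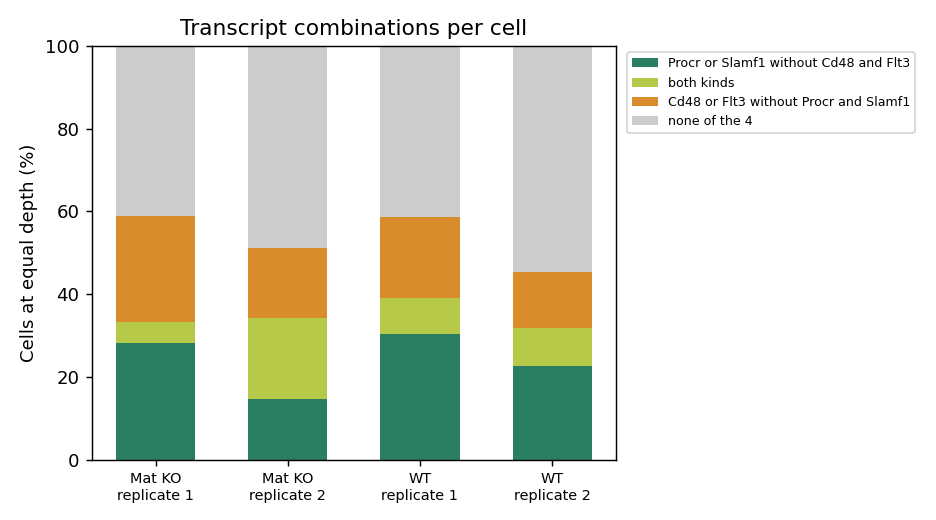
Percent of cells at equal depth in each library by the member transcripts they held, each bar adding to 100%. The green segment (Procr or Slamf1 without Cd48 and Flt3) runs from 14.6% to 30.4% and the grey segment (none of the 4) from 41.0% to 54.5%, and neither orders the libraries by genotype.

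Among lineage-low cells at equal depth, many pairs of members were found together about as often as independent detection within each library would give. Procr with Slamf1 was seen in 5 cells against 4.55 expected, Procr with Flt3 in 14 against 12.2, Procr with Cd34 in 18 against 21.2 and Cd34 with Flt3 in 15 against 12.5. Wider departures included Slamf1 with Cd34 in 2 cells against 4.34 expected and Slamf1 with Flt3 in 1 against 2.60. Slamf1 with Esam was seen in 1 cell against 2.16 expected, and Cd34 with Cd48 in 5 against 2.52. These are small numbers and were not tested.

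To see what else marked the cells with a given member, summed and thinned counts of lineage-low cells with it and without it were compared within libraries. The split needed at least 6 cells on each side in every library, which only Procr (53 cells with, 81 without) and Cd34 (54 with, 80 without) met. A cell without the member is here a cell with none of its UMIs left after the thinning draw. Before thinning, 75 of 148 lineage-low cells held Procr and 93 held Cd34. Some cells counted as without a member thus held it at full depth. Of 2393 genes, 0.209% passed between cells with and without Procr. Tsc22d1, a leucine zipper transcription factor of the TGF-beta-stimulated clone-22 family, was higher in cells with Procr, and 4 genes were lower: Hmgb2 and Top2a, chromatin proteins abundant in dividing cells, the histone gene Hist1h2ae and Nhp2, a core protein of H/ACA small nucleolar ribonucleoproteins.

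Nhp2 measured 41.3, 37.9, 40.1 and 43.7 CPM in cells with Procr of KO1, KO2, WT1 and WT2, and 149, 114, 217 and 267 CPM in cells without it. The groups did not overlap (log2 fold change -2.13, SE 0.46, edgeR adjusted p = 0.039). The sums with Procr came from only 11, 12, 17 and 13 thinned cells in the same order, so these Nhp2 values rest on few UMIs. UMIs also over-counted molecules here, as described above. Hmgb2 measured 640.5, 625, 414 and 629 CPM with Procr and 1066, 766, 1224 and 1769 CPM without it in the same order (log2 fold change -1.02, SE 0.19, edgeR adjusted p = 0.013). Top2a measured 0, 37.9, 86.9 and 271 CPM with Procr and 149, 178, 269 and 553 CPM without it (log2 fold change -1.76, edgeR adjusted p = 0.048). Each of the 3 genes was lower with Procr in 4 of 4 libraries. Hist1h2ae had a log2 fold change of -2.50 (edgeR adjusted p = 0.041). It rested on few UMIs as well, at 10.3, 18.9, 26.7 and 35.0 CPM with Procr. Tsc22d1 measured 1116, 1544, 789 and 1005 CPM with Procr and 673, 963, 568 and 316 CPM without it (log2 fold change 0.89, SE 0.19, edgeR adjusted p = 0.032).

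These calls were fragile. With Procr counted as present from 2 UMIs, 0 genes passed edgeR's test and 109 had an unadjusted p under 0.05. DESeq2 called 1 gene, Hmgb2, whose adjusted p there was 0.034. The Nhp2 call was lost with DESeq2 (adjusted p = 0.118). It was also lost without KO2 (edgeR adjusted p = 0.139), WT1 (0.203) or WT2 (0.533). The number of genes called was 0 without WT2, 1 without KO2, 2 without WT1 and 13 without KO1. The direction of these genes was the same in every alternative in which they were tested.

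Of the 26 listed long-term stem cell genes, 12 were tested in the Procr split. Of these, 11 had higher values and 1 a lower value in cells with Procr, with a median log2 fold change of 0.38 against -0.01 over all genes. None passed edgeR's test, and 3 of the 12 had an unadjusted p under 0.05, as had 152 of all 2393 genes. Among them, chosen after their values were seen, were the transcription factors Hlf, at 0.60 (SE 0.20, edgeR adjusted p = 0.518), and Mecom, at 0.88 (SE 0.44, edgeR adjusted p = 0.794). As a share of UMIs, the whole list took 0.634%, 0.522%, 0.596% and 0.487% in cells with Procr of KO1, KO2, WT1 and WT2, and 0.407%, 0.439%, 0.478% and 0.371% in cells without it. The list was thus higher with Procr in 4 of 4 libraries, by 0.083 to 0.227 percentage points. Its UMIs were unevenly spread, with 12113 for Ifitm1 and 4392 for Hlf over all kept cells, so these genes weigh most. Of 7 tested progenitor genes, 4 were higher and 3 lower with Procr, with a median log2 fold change of 0.28. None passed edgeR's test, and 2 had an unadjusted p under 0.05. Kit, Ly6a and Cd34 were the other members tested, with log2 fold changes of -0.10, 0.15 and 0.04.

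Between cells with and without Cd34, 0.162% of 2466 genes passed, which were 4 genes. Ctla2a, a cysteine protease inhibitor, measured 1717, 3091, 1894 and 1356 CPM in cells with Cd34 of KO1, KO2, WT1 and WT2, and 1250, 2341, 1042 and 1131 CPM in cells without it (log2 fold change 0.51, SE 0.13, edgeR adjusted p = 0.047). Rn45s, the precursor of ribosomal RNA, passed with a log2 fold change of only 0.15 (edgeR adjusted p = 0.007), was lower with Cd34 in WT1, and comes from a multi-copy gene whose reads are uncertain. Tnfaip2 and the immediate early gene Fos were lower, at -1.66 and -0.41 (edgeR adjusted p = 0.040 for both). Fos measured 2601, 1886, 4735 and 3811 CPM with Cd34 and 6045, 2574, 5109 and 3766 CPM without it, so it was not lower in WT2. Without KO1, where the gap was widest, its log2 fold change was -0.16 (edgeR adjusted p = 0.940), and over all kept cells it was -0.08. The calls of Fos and Ctla2a were lost whichever library was left out, and with DESeq2. With 1 library left out, Tnfaip2 passed edgeR's test only without KO1 and Rn45s only without WT1. Neither passed with DESeq2. With 2 UMIs required, 0 genes passed edgeR's test and 92 had an unadjusted p under 0.05, and DESeq2 called 0 genes with 49 at that level. Without WT2 no gene passed edgeR's test, 112 having an unadjusted p under 0.05, and without KO2 or WT1 a single gene did.

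Flt3 had a log2 fold change of 1.16 (SE 0.60, edgeR adjusted p = 0.959) in cells with Cd34, and Procr one of -0.50 (SE 0.45, edgeR adjusted p = 0.990). Of 7 tested progenitor genes, 6 were higher with Cd34, with a median log2 fold change of 0.42, and of 12 stem cell genes 7 were higher and 5 lower, with a median of 0.02. None of them passed edgeR's test, and 1 progenitor gene had an unadjusted p under 0.05.

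**Figure D4:**
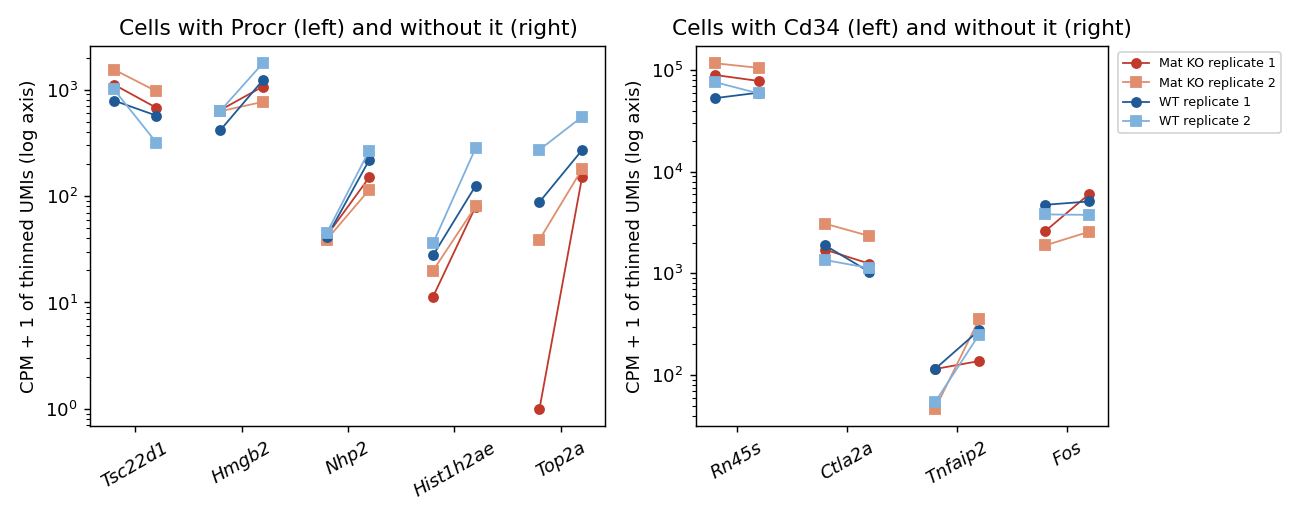
Level in lineage-low cells with the member (left point) and without it (right point) of each library, as CPM + 1 of thinned UMIs on a log axis, for the genes that passed the test in the Procr split (left panel) and the Cd34 split (right panel). Lines join the points of a library; in the left panel every line of Hmgb2, Nhp2, Hist1h2ae and Top2a rises towards the cells without Procr and every line of Tsc22d1 falls.

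The long-term stem cell list was set beside the other members in the same way, as a description. Over the 4 libraries, the mean difference between cells with and without the member was 0.136 percentage points for Procr and 0.079 for Slamf1. It was 0.067 for Flt3, 0.049 for Ly6a, -0.003 for Kit, -0.018 for Cd34, -0.033 for Tek and -0.075 for Esam. Cd48 was left out, since 2 libraries held no lineage-low cell with it at equal depth. Procr was the only one of the members given for which all 4 libraries lay on one side. For Slamf1 the 2 genotypes lay on opposite sides, and its groups held only 2 to 4 cells with the transcript in each library.

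**Figure D5:**
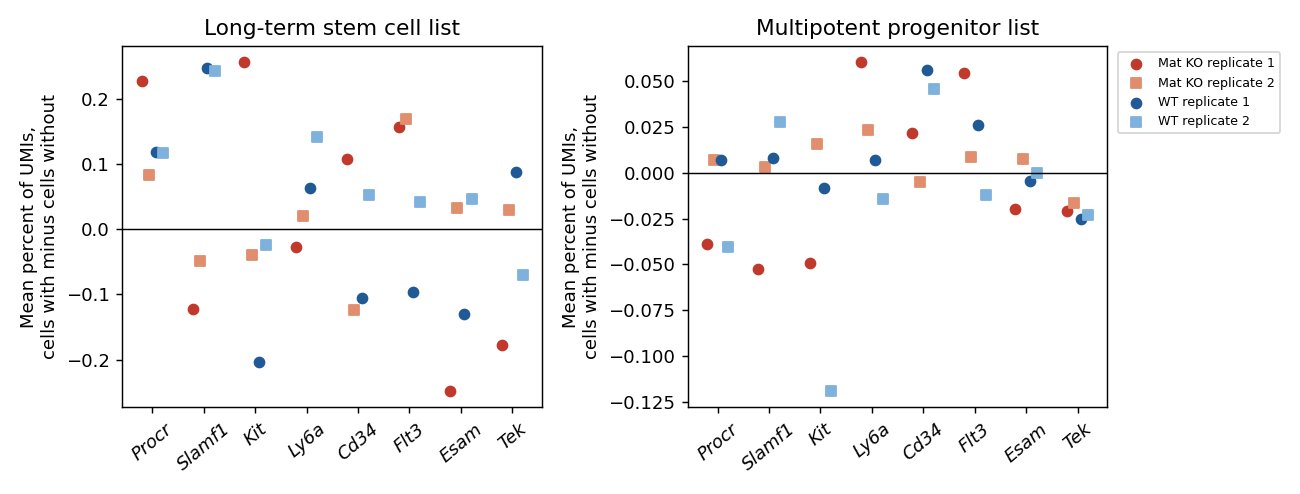
Difference between lineage-low cells with and without each member in the mean percent of UMIs taken by the long-term stem cell list (left) and the multipotent progenitor list (right), 1 point per library; Cd48 is left out because 2 libraries held no lineage-low cell with it at equal depth. For the stem cell list the 4 Procr points lie at 0.083 to 0.227, all above the line at 0.

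Finally, genes whose counts varied most like those of a member were ranked by the mean of the 4 within-library Pearson coefficients over 134 lineage-low cells at equal depth, among 4115 genes detected in at least 20% of them. Lmo2, a transcriptional cofactor of blood stem cells, ranked first for Procr at 0.34, with library values of 0.27 to 0.48, followed by Jade1 and Ubr3. The first was Gpi1 for Kit (0.34), Impact for Ly6a (0.37), Cd53 for Cd34 (0.36), Zdhhc21 for Flt3 (0.35) and Dkc1, the pseudouridine synthase of H/ACA ribonucleoproteins, for Esam (0.33). All of these coefficients are weak, come from sparse counts and are the highest of 4115, and they are given with no test. Slamf1, Cd48 and Tek were detected in too few cells for this ranking.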

How the data were processed

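Per the labels' protocols, bone marrow HSC had been sorted by flow cytometry, picked one by one and taken through a modified form of STRT-seq. The submitters' processing notes list the mm10 build, HTSeq and TopHat2 2.0.12. The tables hold raw counts of UMIs by gene and barcode, as deposited, and each table's 95 spike-in or marker rows, of 24506, stayed out of all totals. How strand and multi-copy genes were treated is not stated in these sources.

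Kept cells had at least 1000 detected genes. Counts were summed per library and compared with edgeR 4.0.16 (R 4.3.3): TMM, filterByExpr, quasi-likelihood test, Benjamini-Hochberg adjustment over all genes, threshold 0.05, with genotype as the only term, or the library as a block within libraries. DESeq2 1.42.0 was an alternative. Shares of cells were set against each other by exact permutation over libraries (two-sided). Binomial intervals are exact (Clopper-Pearson) at 95%. Thinning used 1 seeded draw to 8800 UMIs, the 10th percentile. A cell counted as a lineage-marker cell when a list of at least 3 detected markers took 1% (granulocyte and monocyte), 0.1% (B-lymphoid, T and NK, mast and basophil) or 0.5% (erythroid) of its UMIs. Doublets were not called, since each cell had been picked by hand.

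Scripts were tested on simulated counts of fixed dispersion. There, 97% of 200 genes changed by 3 on the log2 scale were recovered between genotypes (10741 genes). Of 201 genes called, 7 had not been changed. Changes as small as those of the members were not simulated, so this does not measure how well they could be found. Named genes were the 9 members, companion genes that passed or had the 3 smallest p in each direction, up to 6 genes per direction that passed a split, and the 3 most alike in the ranking. The members and lists were chosen with earlier results of these data known.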

Additional observations from a re-analysis of the deposited data

Results flagged for a closer look

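The share of UMIs taken by the long-term stem cell list differed in direction between the genotypes when lineage-low cells with and without Slamf1 were compared. In cells with Slamf1 it was lower by 0.123 and 0.050 percentage points in Mat KO replicates 1 and 2 and higher by 0.247 and 0.243 in WT replicates 1 and 2, so that every library of one genotype moved one way and every library of the other the opposite way. The Mat KO mean minus the WT mean of these differences was -0.331 percentage points. The difference between the genotypes was not tested, and the cells with Slamf1 numbered 4, 2, 3 and 2 in the 4 libraries.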

How the results depend on the processing

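The 9 members gave 0 calls between the genotypes under every alternative run. The number of genes called, 8, was 120 with DESeq2, 149 with no filter on low counts, 4 in lineage-low cells, 5 in cells with at least 2000 genes, 3 in thinned cells, 1 with halved class limits, 0 after leaving out the leading cell of each gene, and 17 to 123 with 1 library left out. The paired analysis, with a replicate block, called 109 genes and no member. The deviations of same-numbered libraries correlated at -0.02, so the numbers are not known to pair them. The cause of these shifts was not tested.

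Member values, none past the test, changed sign as follows (log2, Mat KO minus WT). In lineage-low cells Procr was at 0.13, Slamf1 at 0.62, Kit at 0.038 and Esam at 0.00242, with halved limits Procr at 0.18 and Slamf1 at 0.63, and with doubled limits Procr at 0.036, Slamf1 at 0.53 and Cd48 at -0.13. Kit was at 0.17 in thinned cells. With 1 library left out, Procr ran from -0.68 to 0.0058, Slamf1 from -0.27 to 0.18, Flt3 from -0.18 to 1.19 and Esam from -1.50 to 0.32. Differences in shares of cells also changed sign, in percentage points: Procr was at 8.68 at the greater depth of 18500 UMIs and 0.21 in lineage-low cells, Slamf1 at -5.49 without thinning and -1.04 over all thinning draws, and Kit at 6.57 from 5 UMIs. Cd34 was at 0.010 from 2 UMIs and 0.11 in lineage-low cells, and Cd48 at -1.14 from 5 UMIs, -3.13 without thinning, -1.62 at 18500 UMIs and -2.70 in lineage-low cells. Without thinning, where WT cells were deeper, shares of 5 members did not overlap between the genotypes. Those of Procr, Kit, Ly6a and Cd34 were lower and that of Tek was higher in both Mat KO libraries. How many of all genes did so without thinning was not computed, so this count is not a result about the members. The share with Procr or Slamf1 alone was at 0.65 from 2 UMIs, that with both kinds at -8.43 without thinning and -3.52 in unthinned lineage-low cells, and that with none at 2.18 without thinning.

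The Procr split called 86 of 3596 genes over all kept cells, 0 of 2092 from 2 UMIs, 1 of 2393 with DESeq2 and 0 to 13 with 1 library left out. The Cd34 split called 17 of 3285, 0 of 2269 and 0 of 2466 in the same settings. It called 0 of 12698 with no filter and 0 to 3 with 1 library left out. In the Procr split Kit was at 0.31 and Ly6a at -0.29 over all kept cells, Cd34 at -0.19 from 2 UMIs and -0.055 with no filter, and with 1 library left out Kit ran from -0.33 to 0.18, Ly6a from -0.29 to 0.42 and Cd34 from -0.26 to 0.26. In the Cd34 split Kit was at 0.24 over all kept cells and ran from -0.24 to 0.12. Between the classes 698 of 8202 genes were called in the main setting and 1255 of 8202 with DESeq2. With halved limits 402 of 8573 were called, and in thinned cells 368 of 3090. With 1 library left out, 328 to 741 of 8304 to 8392 genes were called. Members called there were 2 with halved limits, 3 in thinned cells (where Ly6a was at -0.56) and 4 to 5 with 1 library left out.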
